A study of Mus musculus with 4 samples.

Results

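The DNA replication and S phase genes described here are 39 genes of the mouse that encode the machinery copying the genome and the regulators that start it. They were listed by symbol, and each was read from the probe set annotated to that symbol alone, the brightest where a gene had more than 1. All 39 were found among the 19938 genes tested. RNA was taken from ATDC5 cells, a mouse chondroprogenitor line, and each sample was hybridised to 1 single-colour whole-transcript array. Day 15 cells (2 arrays) had been given insulin, transferrin and selenite for 15 days to form chondrocytes. Day 0 cells (2 arrays) were undifferentiated cells of the same line. Both days shared the basal medium with serum, glutamine, antibiotics and ascorbic acid. No cells were kept 15 days without the supplement, so time in culture, the supplement and differentiation cannot be told apart. Whether the 2 samples of a day came from separate cultures is not labelled. The p-values therefore rest on a spread between samples that may be only technical.

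A chromosome is copied once per cell cycle because its origins are licensed and fired at different times. In G1 the origin recognition complex, Cdc6 and Cdt1 load the MCM2-7 helicase, and in S phase Cdc45, GINS and Mcm10 switch it on so that primase and the polymerases can follow. Many of these genes are switched on by E2F transcription factors, which the retinoblastoma protein holds back until cyclin D and cyclin E kinases release them. In the growth plate proliferating chondrocytes divide in columns and leave the cell cycle as they become hypertrophic.

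Because E2F factors bind near the starts of many replication genes, the promoter letters of the genes were set out first. RefSeq windows of GRCm38.p6, 250 bases before to 50 after a gene's start, were matched by symbol for 32 of the 39 genes, and 4 of these had more than 1 window. Gins1, Ccnd1, Prim2, Pole, Mcm4, Ccne2 and Gins2 had none in the table. The windows were searched on both strands for 4 E2F words, namely TTTCCCGC or TTTGGCGC or TTTCGCGC or TTTGCCGC, with overlapping matches counted separately. Of the 37 windows of these genes 14 (37.8%) held an E2F word, against 2.26% of 32851 windows of all genes. Printed here are Mybl2, which had the lowest difference between the days, the next 3 genes from the lowest whose window held an E2F word (Cdc6, Orc1 and Lig1), E2f2, which had the highest difference, and Mcm6, which had the most matches (3) and was added after the matches were seen. For Lig1 and E2f2 the window shown is the one, of 3 and of 2, that held the word. Each is 300 bases long and written 5′ to 3′ on the gene's own strand, with E2F words in capitals on whichever strand they read.
Mybl2 (chr2:163054385-163054684, plus strand): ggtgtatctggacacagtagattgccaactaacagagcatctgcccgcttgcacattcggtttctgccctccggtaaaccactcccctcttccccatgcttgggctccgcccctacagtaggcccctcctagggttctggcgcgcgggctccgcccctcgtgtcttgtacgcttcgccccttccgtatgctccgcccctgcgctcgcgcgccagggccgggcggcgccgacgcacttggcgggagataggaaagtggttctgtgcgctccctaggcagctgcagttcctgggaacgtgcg
Cdc6 (chr11:98907901-98908200, plus strand): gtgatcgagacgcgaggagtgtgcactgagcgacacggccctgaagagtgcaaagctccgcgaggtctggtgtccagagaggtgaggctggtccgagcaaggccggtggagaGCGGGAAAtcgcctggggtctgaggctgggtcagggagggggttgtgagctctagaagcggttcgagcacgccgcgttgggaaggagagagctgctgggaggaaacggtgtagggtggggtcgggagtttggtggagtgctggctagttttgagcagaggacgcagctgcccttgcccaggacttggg
Orc1 (chr4:108579204-108579503, plus strand): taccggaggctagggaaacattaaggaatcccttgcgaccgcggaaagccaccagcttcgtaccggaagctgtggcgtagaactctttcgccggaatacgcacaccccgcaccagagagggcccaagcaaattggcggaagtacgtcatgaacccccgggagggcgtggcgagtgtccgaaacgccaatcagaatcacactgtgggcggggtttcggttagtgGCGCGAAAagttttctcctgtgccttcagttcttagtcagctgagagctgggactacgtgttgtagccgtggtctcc
Lig1 (chr7:13278576-13278875, plus strand): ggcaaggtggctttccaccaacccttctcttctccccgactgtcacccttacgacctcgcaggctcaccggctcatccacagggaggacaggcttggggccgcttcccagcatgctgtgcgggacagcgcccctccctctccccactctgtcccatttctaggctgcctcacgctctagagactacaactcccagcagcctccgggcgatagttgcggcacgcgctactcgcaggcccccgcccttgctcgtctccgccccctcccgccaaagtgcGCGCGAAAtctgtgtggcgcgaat
Mcm6 (chr1:128359656-128359955, minus strand): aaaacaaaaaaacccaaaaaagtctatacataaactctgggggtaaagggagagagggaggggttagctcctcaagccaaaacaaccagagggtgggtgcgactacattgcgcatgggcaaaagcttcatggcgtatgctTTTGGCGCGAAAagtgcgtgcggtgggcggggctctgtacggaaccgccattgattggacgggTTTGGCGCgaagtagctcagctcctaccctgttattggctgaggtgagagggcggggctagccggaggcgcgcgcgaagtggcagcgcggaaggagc
E2f2 (chr4:136172024-136172323, plus strand): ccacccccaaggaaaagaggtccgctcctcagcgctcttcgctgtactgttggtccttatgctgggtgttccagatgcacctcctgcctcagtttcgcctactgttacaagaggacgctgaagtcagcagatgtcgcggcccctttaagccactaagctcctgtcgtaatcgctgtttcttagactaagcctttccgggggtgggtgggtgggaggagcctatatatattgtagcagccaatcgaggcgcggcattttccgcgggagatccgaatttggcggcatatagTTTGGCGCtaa
The Mybl2 window held none of the 4 words, which says only that these letters are not in it. The 20 matches in the windows of these genes began between positions -165 and 39, counted in bases from the start, and 5 genes (Mcm3, Mcm5, Mcm6, Mcm7 and Rfc3) had more than 1. In Mcm6 and in Mcm5 a pair of matches on opposite strands overlapped. Mitosis genes, a list of 29 measured genes such as Mki67 and Plk1, differed in their letters. An E2F word was held by 1 of their 27 windows (3.70%). A CHR word (TTTGAA or TTCGAA, letters known as a repressor element of mitotic promoters) was held by 7 of 37 windows of the replication genes (18.9%), against 21 of 27 of the mitosis genes (77.8%) and 19.2% of all windows. CCAAT, the NF-Y box, was found in 21 of 37 windows of the replication genes (56.8%), in 22 of 27 of the mitosis genes (81.5%) and in 37.4% of all. A match is a description of letters and not a binding site, and the shares were not tested.

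**Figure D1:**
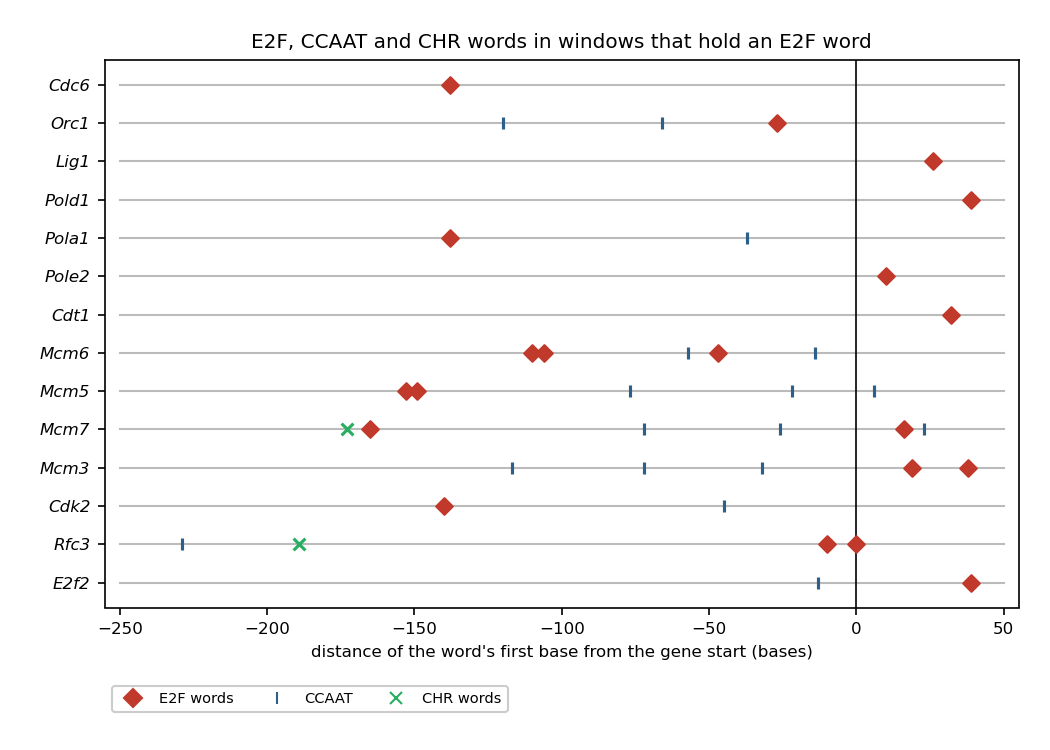
E2F words (red diamonds), CCAAT (blue ticks) and CHR words (green crosses) in the windows of the 14 replication and S phase genes that hold an E2F word, drawn as distance in bases of the word's first base from the gene start. Genes are ordered by the day 15 minus day 0 difference, from the lowest (Cdc6) to the highest (E2f2); the 20 E2F words lie from -165 to 39, and Mcm6 has 3.

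Values below are log2 intensities after adding 1 and quantile normalization, in the order replicate 1, replicate 2 within a day. On this scale the genes were mostly lower at day 15, by a small amount. The day 15 minus day 0 difference was below 0 for 34 of 39 genes, with a median of -0.33 log2, against a median of 0.02 and 46.8% below 0 over all genes. Both day 15 arrays were under both day 0 arrays for 20 genes, or 51.3%, and over them for 1, E2f2. Over all genes 17.8% were lower in this way and 22.3% higher. The genes are bright, and 37 of the 39 were at or above the median level of all genes. Among all genes at or above that level 23.5% were lower in this way. With each array centred on its median, 21% of all genes were. By limma's test with Benjamini-Hochberg adjustment over all genes, however, Mybl2 alone was called, and it was lower. That test called 0.411% of all genes lower and 1.3% higher (82 and 260 genes). Of the 39 genes 11 had an unadjusted limma p below 0.05, against 2425 of all 19938. In RNA from bulk cultures, fewer cells in S phase and less RNA per cell cannot be told apart.

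**Figure D2:**
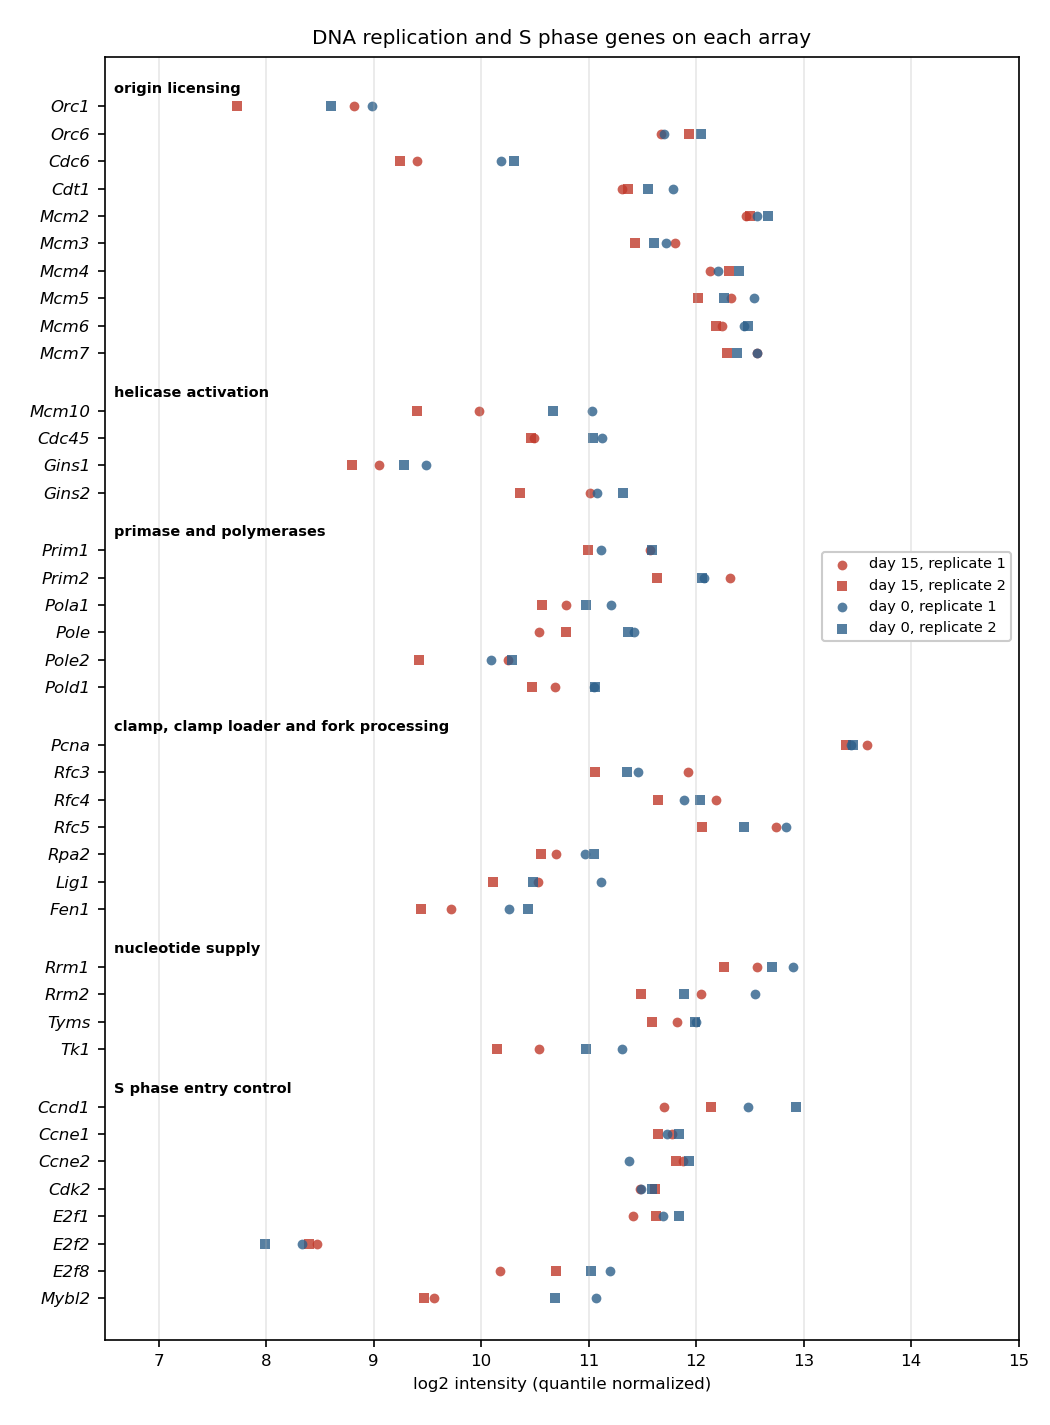
Log2 intensity of each of the 39 genes on each array (x axis, quantile normalized), grouped by role, with day 15 in red, day 0 in blue, circles for replicate 1 and squares for replicate 2. In 20 genes (51.3%) both red points lie left of both blue points, against 17.8% of all genes. The helicase activators are separated in all 4 genes and in 4 of the 6 genes Mcm2 to Mcm7 the days overlap.

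The labels number the samples 1 and 2 on each day, and the arrays with number 1 stood apart in one respect that bears on cell type. Markers of macrophages and monocytes (9 measured) had a summed intensity of 13.12 log2 on day 15 replicate 1 and 11.33 on day 15 replicate 2, and to 13.15 and 10.85 on the day 0 arrays. C1qb, a complement subunit of macrophages, was at 11.11 and 5.80 at day 15, against 11.36 and 6.09 at day 0. Both days held 1 array with high values of C1qb and Csf1r. Ptprc and Adgre1 went the other way and were lower on the arrays numbered 1. Ptprc was at 7.39 and 8.15 at day 15, against 7.82 and 8.14 at day 0. Adgre1 was at 7.48 and 7.65, against 7.73 and 7.98. The remaining markers of this list were higher on the arrays numbered 1 on both days. None of the 9 was called between the days, and 7 of their 9 differences were below 0. The largest differences in this list were those of Cd68 (1.196 log2), Fcer1g (0.47) and Adgre1 (-0.29). Without 1 array Cd68 ran from 0.48 to 1.93 log2 and Fcer1g from -0.48 to 1.40. Chondrocyte markers set the days apart. Limma called 7 of 11 higher at day 15 (Hapln1, Col10a1, Acan, Matn1, Col2a1, Sox6 and Col11a1) and 0 lower. Over all genes it called 1.3% higher and 0.411% lower. All 11 differences were above 0, the smallest 0.24 log2. Both day 15 arrays were above both day 0 arrays for 10 (90.9%), against 22.3% of all genes. Sox6, Col2a1 and Col11a1 lost the call without day 15 replicate 2, day 0 replicate 1 or day 0 replicate 2 (limma adjusted p = 0.0513 to 0.132), and Sox6 also with the deposited scaling (0.0502). The markers' sum was 14.60 and 15.04 log2 at day 15, against 13.18 and 12.87 at day 0. Endothelial markers (Pecam1, Kdr and Tek differed most) and muscle markers (Des, Acta1 and Myog) summed to between 9.05 and 9.71 log2 on every array, with 0 called. The 4 adipocyte markers, also with 0 called, summed to 11.10 and 11.13 log2 at day 15 and to 11.78 and 12.01 at day 0. Most of that sum was Pparg, at 10.61 and 10.60 at day 15, against 11.47 and 11.68 at day 0 (-0.97 log2). The dimmer Fabp4, Adipoq and Plin1 differed by -0.25, -0.24 and -0.17 log2. The part of adipocyte and macrophage markers in the results below was not tested.

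Within each replicate number the replication genes leaned the same way. Between the arrays numbered 2, where C1qb and Csf1r were dim on both days, 37 of 39 genes were lower at day 15, with a median difference of -0.40 log2. Over all genes 9840 of 19938 were lower there. Between the arrays numbered 1 it was 29 of 39, with a median of -0.21, against 8928 of 19938 over all genes. Lower in both comparisons were 28 genes (71.8%), against 28.3% of all genes. These comparisons use the same 4 arrays as the count above. The 20 genes lower without overlap are by definition among the 28, so this count adds no separate evidence. The exceptions among the arrays numbered 2 were E2f2 and Cdk2. Those among the arrays numbered 1 were Ccne1, Ccne2, E2f2, Mcm3, Pcna, Pole2, Prim1, Prim2, Rfc3 and Rfc4. The day 15 arrays differed from each other: 30 of 39 genes were higher in replicate 1, by a median of 0.23 log2, and 28 genes had the lowest of their 4 values on replicate 2. At day 0, 21 of 39 were higher in replicate 1, with a median of 0.02.

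**Figure D3:**
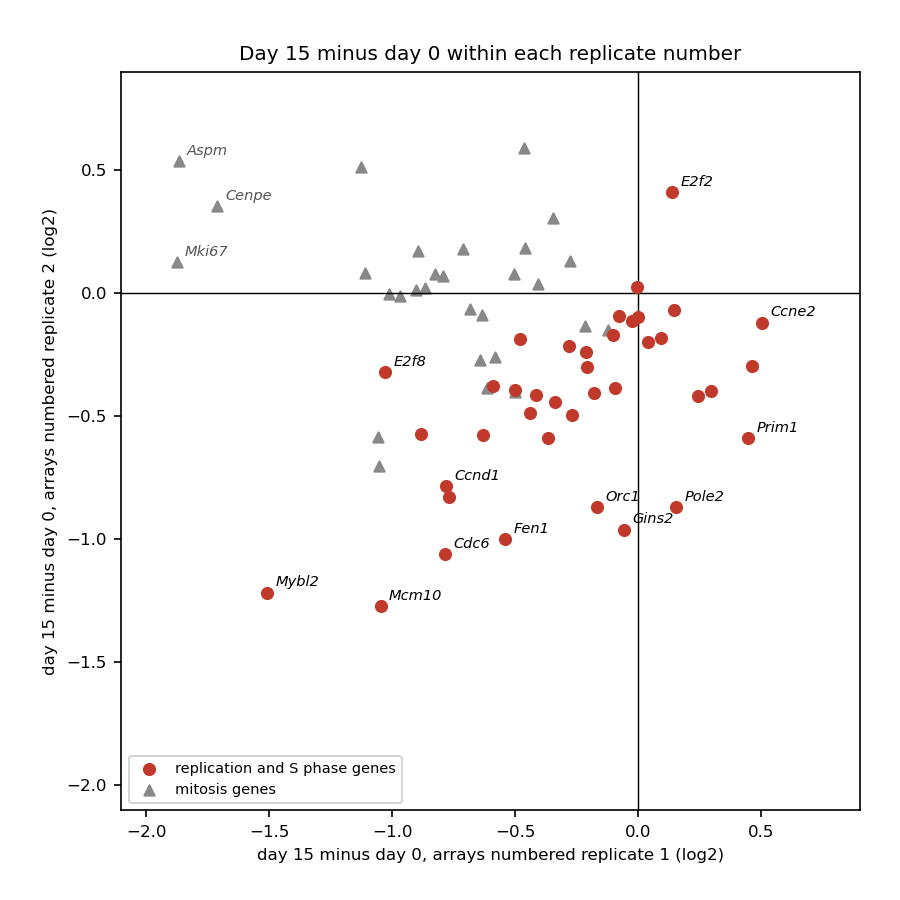
Day 15 minus day 0 (log2) between the arrays numbered 1 (x axis) and between the arrays numbered 2 (y axis), 1 point per gene. Of the 39 replication and S phase genes (red circles) 28 lie in the lower left part of the plot, with Mybl2 and Mcm10 farthest out; the 29 mitosis genes (grey triangles) all lie left of 0 and 12 of them lie below 0.

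Among the genes that license origins, Cdc6 differed most. Cdc6, the ATPase that with the origin recognition complex loads the helicase, was at 9.40 and 9.25 at day 15, against 10.19 and 10.31 at day 0. The days did not overlap, and the day 15 level was 52.8% of that at day 0. The difference, -0.92 ± 0.17 log2 (SE throughout), missed limma's threshold (adjusted p = 0.0785). Cdt1, the partner of Cdc6 in loading, was at 11.31 and 11.37 at day 15, against 11.79 and 11.55 at day 0, a difference of -0.33 ± 0.17 log2 without overlap. Orc1, the largest subunit of the origin recognition complex, was at 8.82 and 7.73 at day 15 and at 8.99 and 8.60 at day 0. Its day 15 values had an SD of 0.77 and overlapped the day 0 range, and its difference was -0.52 ± 0.38 log2. Orc6, the smallest subunit, differed by -0.07 ± 0.20 log2. Of all 10 licensing genes, with the helicase subunits below, 4 (40%) were lower without overlap, against 17.8% of all genes.

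The 6 subunits of the replicative helicase had small differences, all below 0, and none was called. Mcm6 was at 12.24 and 12.18 at day 15, against 12.45 and 12.48 at day 0, the largest difference of the 6 (-0.25 ± 0.16 log2). Mcm2 was at 12.47 and 12.50, against 12.57 and 12.67 at day 0, and like Mcm6 its days did not overlap. That is 2 of the 6 (33.3%), against 17.8% of all genes lower without overlap. Mcm3, with the smallest difference of the 10 licensing genes (-0.05 ± 0.20 log2), was at 11.81 and 11.43 at day 15 and at 11.72 and 11.61 at day 0. Mcm4, Mcm5 and Mcm7 also overlapped and differed by -0.09, -0.22 and -0.05 log2. The median of the 6 was -0.11 log2, and their 95% intervals reached down to -0.72 (Mcm5) and up to 0.44 (Mcm3). With 2 arrays a day, any difference inside a gene's own interval remained compatible with its values.

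Genes that switch the loaded helicase on were lower on both day 15 arrays in 4 of 4 cases, against 17.8% of all genes. Their median difference was -0.56 log2. Mcm10, which holds the activated helicase and polymerase alpha together, was at 9.98 and 9.40 at day 15 and at 11.03 and 10.67 at day 0. That is 44.8% of the day 0 level, but the difference of -1.16 ± 0.26 log2 missed the limma threshold (adjusted p = 0.13). Cdc45, a core subunit of the active helicase, was at 10.50 and 10.47 at day 15, against 11.12 and 11.04 at day 0. Its arrays agreed closely within each day and the difference was -0.60 ± 0.16 log2 (limma adjusted p = 0.200). The GINS subunits Gins2 and Gins1 differed by -0.51 ± 0.26 and -0.46 ± 0.19 log2. Gins1, the smallest difference here, was at 9.05 and 8.80, against 9.49 and 9.28 at day 0. Gins2 was at 11.02 and 10.36, against 11.08 and 11.32, with day 15 replicate 2 the lowest array. The gap between its days was only 0.06 log2.

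The catalytic subunits of the replicative polymerases were lower on both day 15 arrays, and the primase subunits were not. Pole, the catalytic subunit of the leading strand polymerase epsilon, was at 10.54 and 10.79 at day 15 and at 11.42 and 11.36 at day 0, 60.4% of the day 0 level (-0.73 ± 0.18 log2, limma adjusted p = 0.162). Pold1, the catalytic subunit of polymerase delta, was at 10.69 and 10.47, against 11.05 and 11.06 (-0.48 ± 0.17 log2). Pola1, the catalytic subunit of polymerase alpha, differed by -0.41 ± 0.18 log2. In these catalytic genes, unlike in primase, no array of 1 day lay within the range of the other. They are 3 of the 6 genes of this role, against 17.8% of all genes lower without overlap. The primase subunits Prim1 and Prim2, which lay the RNA primer, overlapped and differed by -0.07 ± 0.27 and -0.09 ± 0.26 log2. Prim1 was at 11.57 and 10.998 at day 15, against 11.12 and 11.59 at day 0, higher on day 15 between the arrays numbered 1 and lower between those numbered 2. Pole2, the second subunit of polymerase epsilon, did the same (10.25 and 9.42, against 10.10 and 10.29).

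The sliding clamp and its loader overlapped between the days, while Fen1 and Rpa2 were lower on both day 15 arrays. Pcna, the clamp, was at 13.59 and 13.39 at day 15 and at 13.44 and 13.46 at day 0, a difference of 0.04 ± 0.17 log2 with a 95% interval from -0.38 to 0.46. Its second probe set gave 0.04 log2 too, at nearly the same level on every array (13.57 and 13.39, against 13.43 and 13.45). Whether the probe sets read separate sequences was not examined. Rfc3, Rfc4 and Rfc5, subunits of the clamp loader, overlapped between the days, at 0.09, -0.05 and -0.24 log2. For each of the 3 the day 15 arrays lay farther apart than the day 0 arrays, as for Rfc3 at 11.92 and 11.06, against 11.46 and 11.36. Fen1, the flap endonuclease that trims Okazaki fragments, was at 9.72 and 9.44 at day 15 and at 10.26 and 10.44 at day 0. Its level was 58.6% of that at day 0 (-0.77 ± 0.19 log2, limma adjusted p = 0.160). Lig1, the ligase that seals the fragments, was at 10.53 and 10.11, against 11.12 and 10.49, a difference of -0.48 ± 0.27 log2 with overlap. Rpa2, a subunit of the single-strand binding protein, differed by -0.38 ± 0.17 log2 without overlap. Fen1 and Rpa2 are 2 of the 7 genes of this role (28.6%), against 17.8% of all genes lower without overlap.

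All 4 genes of nucleotide supply were lower at day 15 between the arrays of either number, with a median of -0.42 log2. Tk1, the thymidine kinase of cycling cells, was at 10.54 and 10.14 at day 15, against 11.31 and 10.97 at day 0 (-0.80 ± 0.22 log2, limma adjusted p = 0.212). The other Tk1 probe set was dimmer and gave -1.19 log2; whether either is free of signal from similar copies was not examined. Rrm2, the regulated subunit of ribonucleotide reductase, was at 12.04 and 11.49, against 12.55 and 11.88, a difference of -0.45 ± 0.30 log2 with overlap. Rrm1, its partner subunit, differed by -0.39 ± 0.19 log2. Tyms, the thymidylate synthase, was at 11.82 and 11.59 at day 15 and at 12.00 and 11.99 at day 0, the smallest difference of the group (-0.29 ± 0.17 log2). In Rrm1, Tyms and Tk1 (3 of 4) the days did not overlap, against 17.8% of all genes lower in this way.

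The regulators of S phase entry held both the called gene and the highest difference. Mybl2 (probe set 10478355), the B-Myb transcription factor of the S and G2 phases and itself an E2F target, was at 9.57 and 9.47 at day 15, against 11.07 and 10.69 at day 0. The deposited intensities before any normalization here were 763 and 739 at day 15, against 2148 and 1621 at day 0. Both day 15 arrays were far under both day 0 arrays. Mybl2 fell by 1.36 ± 0.20 on the log2 scale to 38.9% of the day 0 level (limma adjusted p = 0.0385). The call was lost without any 1 of the 4 arrays (limma adjusted p = 0.051 to 0.129) and with each array centred on its median (0.0632), while the difference stayed between -1.55 and -1.16 log2 without 1 array.

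Ccnd1, cyclin D1, which links growth signals to the retinoblastoma protein, was at 11.71 and 12.14 at day 15 and at 12.49 and 12.93 at day 0. Within either replicate number the difference was -0.78 log2, but the SD within each day was 0.31, and it did not pass the limma test (adjusted p = 0.261). E2f8, a repressor E2F, was at 10.17 and 10.70, against 11.20 and 11.02 (-0.67 ± 0.23 log2, without overlap). E2f1, an activator E2F, differed by -0.25 ± 0.18 log2, also without overlap. E2f2, another activator, was at 8.47 and 8.40 at day 15 and at 8.33 and 7.99 at day 0, the only one of the 39 genes with both day 15 arrays higher (0.27 ± 0.19 log2, limma adjusted p = 0.715). Cyclin E genes and their kinase showed no such separation. Ccne1 and Ccne2 differed by -0.08 ± 0.17 and 0.19 ± 0.23 log2. Cdk2, with the smallest difference of the 39, was at 11.48 and 11.62, against 11.49 and 11.59 (0.01 ± 0.17 log2, with a 95% interval from -0.40 to 0.42). Of the 8 regulators of S phase entry 4 were lower without overlap and 1 higher, against 17.8% and 22.3% of all genes.

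**Figure D4:**
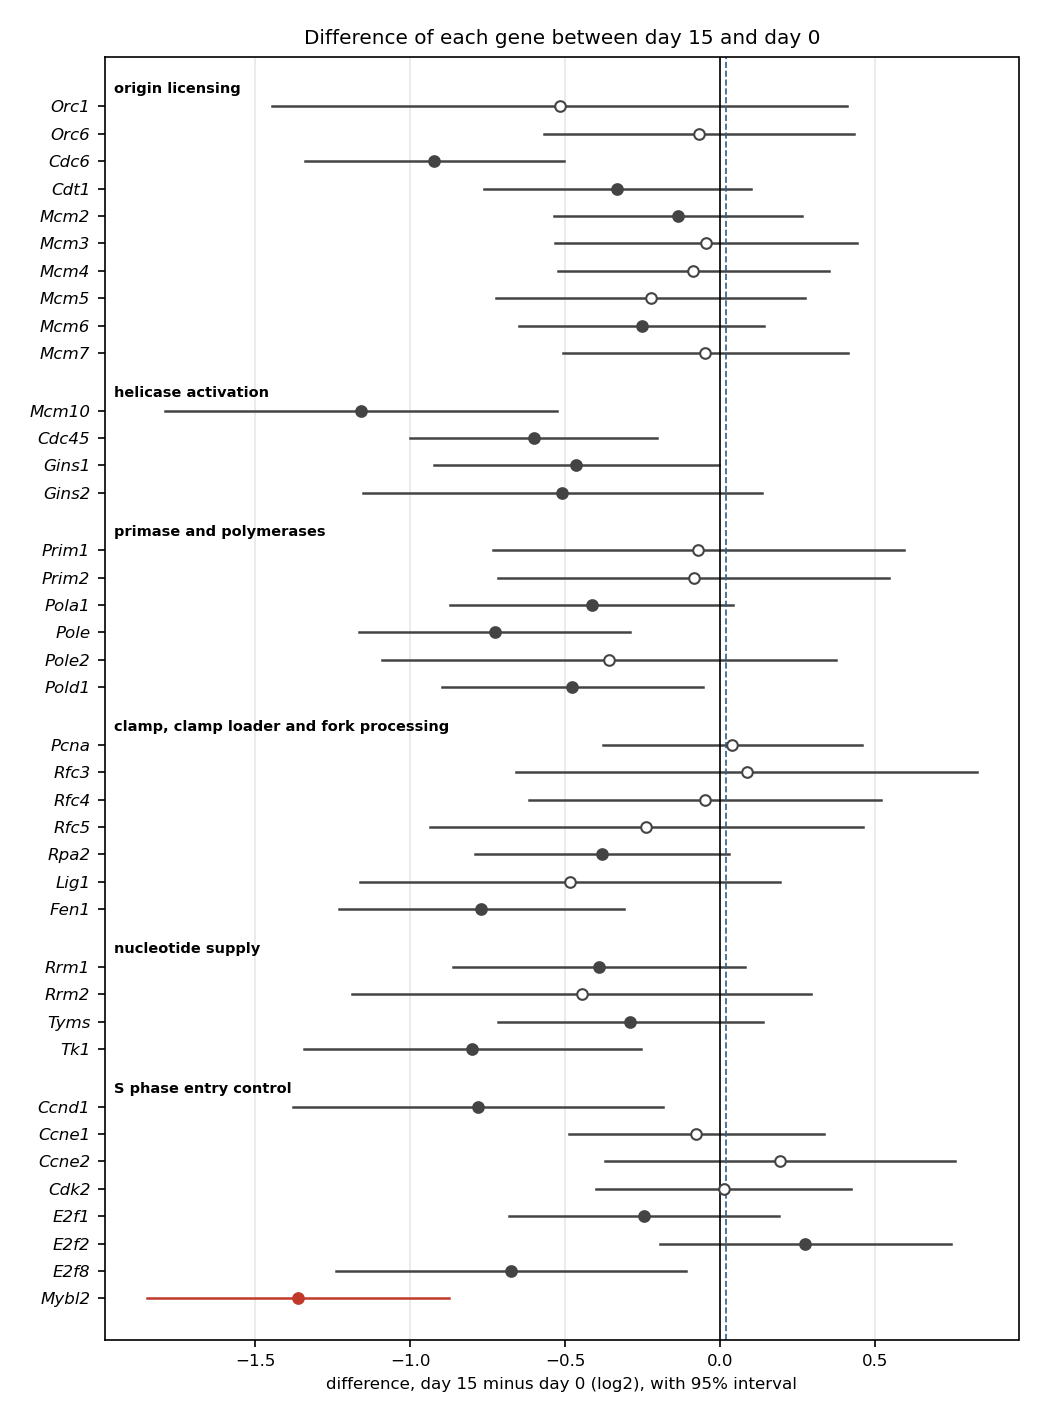
Day 15 minus day 0 difference of each gene (log2, point) with its 95% limma interval (line), by role; filled points mark genes whose days do not overlap, red the gene called over all genes, and the dashed line the median of all genes (0.02). The interval lies wholly below 0 for 11 genes, from Mybl2 (-1.36) to Gins1 (-0.46).

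Other genes of the same process, from a list of 45 of which 44 were measured, showed a smaller median difference (-0.17 log2). None was called by limma, 9 had an unadjusted p below 0.05, and both day 15 arrays were lower for 18 (40.9%, against 17.8% of all genes) and higher for 2 (4.55%, against 22.3%). Clspn, the claspin that carries the replication checkpoint signal, was at 8.21 and 8.03 at day 15 and at 9.47 and 9.02 at day 0 (-1.13 ± 0.21 log2, limma adjusted p = 0.0847). Ticrr, a treslin needed for origin firing, differed by -1.17 ± 0.29 log2 and Ctps, which makes CTP, by -0.96 ± 0.17 log2 (limma adjusted p = 0.0738; 0.0342 with trend and robust hyperparameters). Without day 0 replicate 1 the difference of Ticrr was -0.74 log2. Of 22 measured E2F, Rb and G1 control genes none was called by limma, 7 had an unadjusted p below 0.05 (2425 of 19938 over all genes), and the median was -0.14 log2. Without overlap 8 (36.4%) were lower, against 17.8% of all genes, and 2 (9.09%) higher, against 22.3%. Cdk6, a cyclin D kinase, was at 10.02 and 10.69, against 11.70 and 11.78 (-1.39 ± 0.25 log2, limma adjusted p = 0.0785). It was called without day 15 replicate 2 (0.043), with each array centred on its median (0.0465) and with trend and robust hyperparameters (0.0416). Myc, a growth regulator, was at 11.38 and 12.26 at day 15, against 12.55 and 12.90 at day 0 (-0.90 ± 0.32 log2; -0.46 without day 15 replicate 1). Foxm1, a G2 transcription factor, was at 10.86 and 11.30, against 12.17 and 11.47 (-0.74 ± 0.29 log2; -0.39 without day 0 replicate 1). Rb1, the retinoblastoma gene, was at 8.63 and 8.64 at day 15 and at 8.08 and 8.30 at day 0, and its relative Rbl2 at 10.93 and 10.70, against 10.43 and 10.24.

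Inhibitors of the cycle mostly leaned the other way. Of 13 measured, 7 (53.8%) had both day 15 arrays higher, against 22.3% of all genes, and 2 (15.4%) lower, against 17.8%, with a median of 0.31 log2. Gadd45a, a growth arrest and stress gene, was at 11.52 and 11.43 at day 15, against 10.14 and 10.27 at day 0, and rose by 1.27 ± 0.17 log2 (limma adjusted p = 0.0294; 0.0841 to 0.121 without 1 array). It was the only one of the 13 called, against 1.3% of all genes called higher. Gadd45b (-0.48 log2) and Cdkn2b (-0.16 log2) were lower without overlap, and Gadd45g differed by -0.66 log2 with overlap. Cdkn1c, the p57 kinase inhibitor, was at 9.64 and 9.53, against 8.48 and 7.48 (1.60 ± 0.34 log2, limma adjusted p = 0.114). It passed without day 0 replicate 1 (0.0155). Ccng2, a cyclin linked to arrest, differed by 1.38 ± 0.26 log2 and Cdkn1b, the p27 inhibitor, by 0.45 ± 0.17 log2. The dimmer probe set of Cdkn1b gave 0.93 log2 and the mean of both 0.69. Cdkn1a was not analysed here.

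The mitosis genes depended on the replicate number. Their median difference was -0.37 log2. Both day 15 arrays were lower for 4 of 29 (13.8%: Aurkb, Birc5, Ttk and Ube2c), against 17.8% of all genes. They were both higher for 0 of 29, against 22.3% of all genes. None was called by limma, and 2 had an unadjusted limma p below 0.05, against 2425 of all 19938 genes. Between the arrays numbered 1 all 29 were lower at day 15, with a median of -0.71 log2, against 8928 of all 19938 genes. Between those numbered 2 it was 12 of 29, with a median of 0.04, against 9840 of all 19938 genes. Mki67, the Ki-67 antigen of cycling cells, was at 10.48 and 11.24 at day 15 and at 12.35 and 11.11 at day 0, and Top2a, the topoisomerase that untangles sister chromatids, at 11.92 and 11.76, against 12.43 and 11.68. Day 0 replicate 1 was thus the highest array for both. The probe sets of Top2a disagreed in size: the dimmer one was at 5.98 and 5.79 at day 15, against 8.43 and 7.70 at day 0, a difference of -2.18 log2, and the mean of both gave -1.197 log2 in place of -0.21. Ttk and Birc5, a spindle checkpoint kinase and survivin, differed by -0.88 ± 0.35 and -0.82 ± 0.25 log2. Without day 0 replicate 1 these were -0.415 and -0.49 log2, and that of Mki67 was -0.25 log2 in place of -0.87. Between the 2 day 0 arrays the median SD was 0.14 log2 for the replication genes, against 0.74 for the mitosis genes. Whether the lists differ in their response was not tested.

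**Figure D5:**
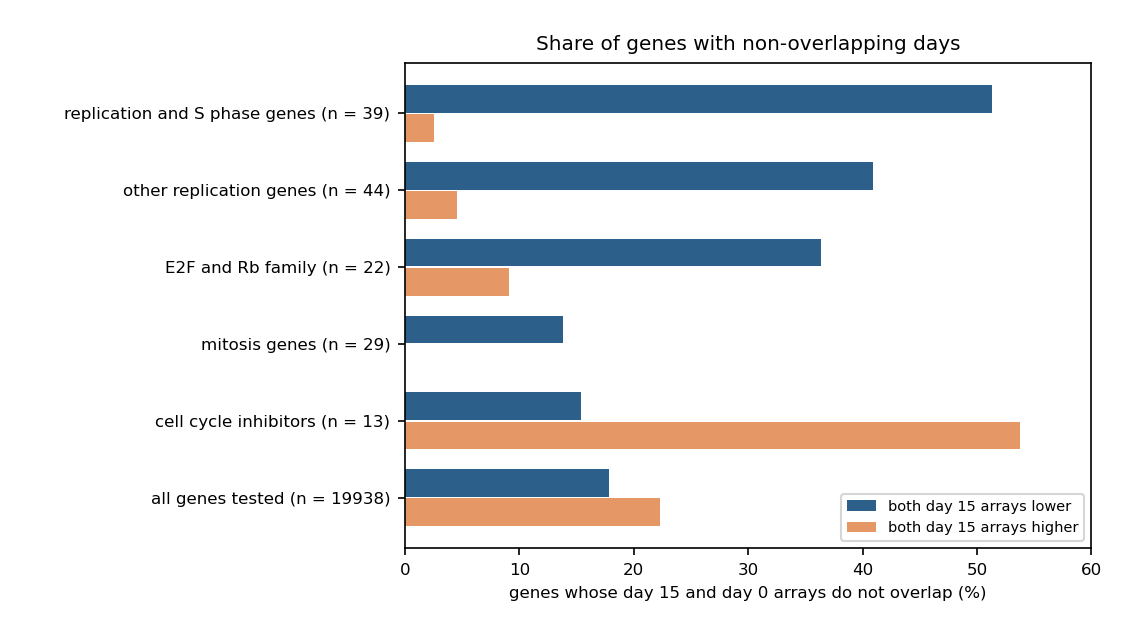
Percent of measured genes of each list whose 2 day 15 arrays were both lower (blue) or both higher (orange) than both day 0 arrays. The replication and S phase genes reach 51.3% lower and 2.56% higher, against 17.8% and 22.3% of all genes, and the mitosis genes 13.8% lower.

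Of the 32 genes with a window, the 14 with an E2F word had a median of -0.29 log2, and the days did not overlap with day 15 lower in 5 of them. The 18 without one had a median of -0.34 log2, and 11 of them were lower without overlap. Over all genes 17.8% were lower without overlap. Mcm6 and Cdc6, both printed above with an E2F word, differed by -0.25 and -0.92 log2, and Mybl2 and Mcm10, whose windows held none, had the lowest differences of the 39. The groups were set by the searched letters alone, and Mybl2, described above as an E2F target, fell in the group without a word. A window without an E2F word may therefore still belong to an E2F target, and the split does not sort genes by E2F control. The 2 groups of genes were not compared by a test.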

How the data were processed

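The authors deposited processed intensities, 1 for each probe set on each array. Their values, from 0.72 to 23103, show a linear scale. How background, summarization and normalization were handled is not given in the sources used here, and the build (mm9) is named in the submitters' processing notes. Of 35512 probe sets, 21789 had 1 gene symbol in the platform annotation, 1621 had several and 12102 none; the first were kept and 21698 of them found in the gene table of GRCm38.p6. For 999 genes with more than 1 probe set the brightest was used. Intensities were turned to log2 after adding 1 and quantile normalized, since array medians differed by 0.20 log2. Background light and the added 1 understate differences of dim genes, and no detection call was used.

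The difference between day 15 and day 0 was fitted by limma (version 3.58.1, R 4.3.3), using lmFit and eBayes with the day as the only term, over all 19938 genes. Genes were called at a Benjamini-Hochberg adjusted p below 0.05; SE is limma's moderated error. The fit's estimates and calls were tested on simulated data. The simulated errors were independent between arrays, with no effect of the replicate number, and no change under 1 log2 was put in. Only 2 of the genes described differed by more than 1 log2. The simulation therefore does not show how the fit handles smaller changes or arrays that share deviations. Genes, lists and tests were chosen with earlier results of these data known. The text gives array values for called genes, the 2 largest differences and the smallest of each role, and names the called genes and 3 largest differences of each other list, with Mki67, Top2a, Cdkn1b, Cdkn1c and Rb1; other genes named were chosen after their values were seen. The 4 arrays limit the precision. Alternatives were the deposited scaling, median centring, a pseudocount of 16, a filter at the median level, the mean of probe sets, trend with robust hyperparameters, the replicate number as a block, and leaving out each array. Plots used matplotlib 3.10.9 (Python 3.11.15).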

Additional observations from a re-analysis of the deposited data

How the results depend on the processing

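The count of 342 called genes became 628 with the replicate block and ran from 174 (without day 15 replicate 1) to 282 without 1 array. The genes called among the 39 numbered 1, 0 with each array centred on its median, 2 with the replicate block (Mybl2, and Mcm10 at an adjusted p of 0.0275), and 0 without any 1 array (lowest and highest 0), when limma assumes the lone array's spread to equal that of the remaining day. Of the genes named from other lists, 7 gained a call with the replicate block: Ccng2 (adjusted p = 0.0155), Cd68 (0.0233), Clspn (0.0306), Cdk6 (0.0327), Cdkn1c (0.0428), Pparg (0.0441) and Ctps (0.0498). With 2 pairs the replicate number is no known pairing; the deviations of same-numbered arrays correlated at 0.40 over all genes. The median of -0.33 log2 ran from -0.42 (without day 15 replicate 1) to -0.18 (without day 15 replicate 2) and lay between -0.34 and -0.30 in the 7 settings that kept all 4 arrays. The 20 genes lower without overlap were 20 in each of those 7 settings, in which 16.6% to 23.5% of all genes tested were lower in this way. They were 23 to 34 without 1 array, where 30.6% to 34% of all genes met that looser rule. Mybl2 and Gadd45a kept their direction in every setting run. The sign differed in at least 1 setting for 14 of the 39 genes, none of them called: Ccne2, Cdk2, Mcm3, Mcm4, Mcm7, Orc1, Orc6, Pcna, Pole2, Prim1, Prim2, Rfc3, Rfc4 and Rfc5. Without 1 array Orc1 ran from -1.05 to 0.03 log2, Pole2 from -0.77 to 0.06, Gins2 from -0.84 to -0.18, Lig1 from -0.80 to -0.17 and Rrm2 from -0.78 to -0.12. Under the filter at the median level 37 of the 39 were tested. No scaling moved the median of all genes by more than 0.1 log2. Without a detection call, how far background limits the dim genes is unknown.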
